A study of Mus musculus with 7 samples.

Results

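Rgs1, Rgs2, Rgs3, Rgs4, Rgs5, Rgs10 and Rgs16, all genes of regulators of G-protein signaling, were chosen by their symbols and make up 7 of the 27998 genes in a single-cell count matrix of the mouse mammary gland. The matrix held 13684 cells from 7 nulliparous female mice of mixed FVB, 129 and C57BL/6J background, taken at diestrus from the abdominal glands after the lymph nodes had been cut away. Mice of 3 to 4 months formed the young group, called Young A, B and C, and mice of 13 to 14 months formed the aged group, called Aged A to D. Each mouse gave 1 library, made with droplet capture of 3′ ends and unique molecular identifiers (UMIs), and the deposited annotation sorted the cells into 13 types. Levels are given in CPM, the UMIs of a gene in all cells of a type from 1 mouse scaled to 1000000 UMIs of that sum, with the SD over mice.

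A G protein passes on the signal of a membrane receptor while its alpha subunit holds GTP. RGS proteins bind that active alpha subunit and speed up the breakdown of GTP, so that they shorten and weaken the signal. Rgs1 and Rgs10 are known from leukocytes, where they dampen chemokine receptors and microglial activation respectively. Rgs4 and Rgs5 are known from mural cells, the contractile cells wrapped around small vessels, and Rgs5 is a standard pericyte marker. Rgs2 favours the Gq class of alpha subunits and restrains vasoconstrictor signaling, Rgs16 is readily induced by inflammatory and mitogenic stimuli, and Rgs3 is a larger protein with additional domains.

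On chromosome 1 lie 5 of the 7 genes (GRCm38). Rgs2 at chr1:143999338-144004161 and Rgs1 at chr1:144242296-144249242 both run on the minus strand, with Rgs13 between them. Rgs5 at chr1:169655501-169695813 on the plus strand and Rgs4 at chr1:169741477-169747642 on the minus strand face each other with their 3′ ends, 45663 bases apart. Rgs16 lies at chr1:153740349-153745468 on the plus strand, Rgs3 at chr4:62559847-62704001 on the plus strand and Rgs10 at chr7:128373621-128418758 on the minus strand. The predicted genes Gm11209 and Gm28513 overlap Rgs3 and Rgs16 on the other strand and Gm15503 overlaps Rgs10 on its own strand. Reads in the stretch shared by Gm15503 and Rgs10 may have been assigned to either gene or to none.

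Promoter sequences are shown for the 4 genes on which the age comparisons below turn, as the 250 bases before the RefSeq start of each gene on its own strand (GRCm38.p6). Capitals mark matches, on either strand, to the TATA box TATAAA, the CCAAT box CCAAT, the GC box GGGCGG and TGACG, the core of a cAMP response element. Rgs16 (chr1:153740103-153740352, plus strand) and Rgs5 (chr1:169655251-169655500, plus strand) were members with an age difference in vascular endothelial cells. Rgs4 (chr1:169747643-169747892, minus strand) and Rgs2 (chr1:144004150-144004399, minus strand) differed in how they moved with age in vascular endothelial cells and in pericytes.
Rgs16: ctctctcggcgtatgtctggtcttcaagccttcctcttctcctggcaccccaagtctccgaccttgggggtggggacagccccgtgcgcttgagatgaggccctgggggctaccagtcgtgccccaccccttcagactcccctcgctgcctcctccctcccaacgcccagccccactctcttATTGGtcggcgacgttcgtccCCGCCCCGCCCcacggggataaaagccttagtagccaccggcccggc
Rgs5: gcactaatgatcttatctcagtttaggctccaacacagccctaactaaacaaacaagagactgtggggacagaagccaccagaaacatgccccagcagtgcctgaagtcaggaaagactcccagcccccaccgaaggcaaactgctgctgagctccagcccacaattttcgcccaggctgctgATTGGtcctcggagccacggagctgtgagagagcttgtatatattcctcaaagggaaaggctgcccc
Rgs4: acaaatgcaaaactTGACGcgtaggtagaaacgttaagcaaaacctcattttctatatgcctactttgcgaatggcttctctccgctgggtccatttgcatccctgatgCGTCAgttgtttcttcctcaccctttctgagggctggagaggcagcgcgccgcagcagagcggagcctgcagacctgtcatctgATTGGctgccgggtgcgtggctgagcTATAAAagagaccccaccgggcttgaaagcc
Rgs2: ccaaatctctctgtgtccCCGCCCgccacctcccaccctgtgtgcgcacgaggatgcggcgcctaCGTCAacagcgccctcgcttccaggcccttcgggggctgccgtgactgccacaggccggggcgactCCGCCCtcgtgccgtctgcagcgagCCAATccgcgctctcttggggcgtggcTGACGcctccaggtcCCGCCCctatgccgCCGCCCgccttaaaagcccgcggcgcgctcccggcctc

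All 4 windows held a CCAAT box, beginning 68 bases before the start in Rgs16, 67 in Rgs5, 57 in Rgs4 and 94 in Rgs2, a motif found in 33.8% of 32851 promoter windows of the same length. Only Rgs4 among them held the TATA box, 31 bases before its start, against 12.4% of all windows. TGACG occurred at 2 places in Rgs2 and at 2 in Rgs4, and 17.8% of all windows held it. Rgs2 had 4 GC boxes and Rgs16 had 2 that overlap, and 32.7% of all windows had at least 1. The GC content was 72.4% in Rgs2 and 66.4% in Rgs16 and 53.6% in both Rgs4 and Rgs5, against a median of 52.4% over all windows. Neither these windows nor those of Rgs3 and Rgs10 held the AP-1 site TGANTCA, the GAS element TTCNNNGAA, the ETS core GGAAGT or a CArG box, which 6.75%, 7.02%, 19.7% and 1.47% of all windows held. RefSeq entries were matched for 6 of the 7 genes, all but Rgs1. These matches describe the letters only.

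The libraries held 1264 to 2865 cells and 6652599 to 16999625 UMIs per mouse, with a median of 4758.5 to 7109.5 UMIs per cell. Any 2 libraries shared 1 to 10 of their cell barcodes. The types that matter here carried their defining markers: all 5 vascular endothelial markers (Pecam1, Cdh5, Eng, Sox17, Sele) were detected in vascular endothelial cells, and all 6 pericyte markers other than Rgs5 (Des, Notch3, Pdgfrb, Kcnj8, Abcc9, Cspg4) in pericytes. The cells annotated as pericytes also carried endothelial RNA, however. Their summed vascular endothelial markers reached 1628 to 1759 CPM in the young and 733 to 1244 CPM in the aged mice, and only 27 of 231 young but 62 of 118 aged pericytes had no Pecam1 UMI. Fewer cells of a kind within a sum and less RNA per cell cannot be told apart. The 7 genes together accounted for 17303 UMIs, 87.7% of the UMIs of all Rgs genes in the matrix.

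Each gene had its own distribution over cell types, which is given as a description because the types were defined from the same cells. Rgs1 was a leukocyte gene. It was highest in Mb macrophages, a macrophage population marked by Mmp12, Mmp13 and Spic, with 2395 ± 1654 CPM (SD, n = 7). The 7 mice ranged from 870.3 CPM in Young A, with 90 of these cells, to 5862 CPM in Aged D, with 3. Aged A, B and C had 9, 6 and 4 cells. Over mice with at least 10 cells, which were the young mice alone, the mean was 1456.9 CPM. With all mice summed before scaling it was 1355.7 CPM. NK cells followed with 908 ± 462 CPM (SD, n = 5), dendritic cells with 726 ± 274 CPM (n = 5) and T and B cells with 629 ± 537 CPM (n = 7). Mb macrophages exceeded NK cells and dendritic cells in 5 of 5 mice that had both, whereas the order of NK, dendritic and T and B cells was not the same in every mouse. Ma macrophages, the population marked by Mrc1, Cd209f and Cd163 and found almost only in young mice, had 118 ± 54.9 CPM (n = 3), below Mb macrophages in 3 of 3 mice. An Rgs1 UMI was present in 94.5% of Mb macrophages (95% exact binomial interval 89.5 to 97.6, median 5343 UMIs per cell) but in 1.03% of hormone-sensing (HS) luminal cells, which are not known for the gene (median 7277 UMIs). No Rgs1 UMI was found in pericytes, and 0 of 349 cells, taken as fewer than 3 counts, allows a share of cells with a UMI of up to 0.86%. All such intervals and limits cover counting error only.

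Rgs10 was likewise highest in myeloid cells, with 369 ± 123 CPM in Mb macrophages (n = 7), 310.4 ± 67.1 in Ma macrophages (n = 3) and 234 ± 92.2 in dendritic cells (n = 5). Ma macrophages were summed in the young mice alone, where Mb macrophages had 474 ± 119 CPM and were higher in 3 of 3 mice. Outside the leukocytes the mean of Rgs10 was highest in myoepithelial cells, the contractile basal cells of the mammary duct, with 48.2 ± 18.7 CPM (n = 7). They exceeded fibroblasts, the next type, in only 4 of 7 mice, so these neighbours could not be ordered. Alveolar (AV) luminal cells with 5.47 ± 4.07 and HS cells with 2.42 ± 1.40 were below myoepithelial cells in 7 of 7 mice. An Rgs10 UMI was found in 90.4% of Mb macrophages, 16.3% of myoepithelial cells and 1.64% of HS cells, at median depths of 5343, 4431 and 7277 UMIs per cell.

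Rgs2, like Rgs3, Rgs10 and Rgs16, was detected in all 13 types. For Rgs10 in lymphatic endothelial cells this was 1 UMI in Aged A, and for Rgs16 in Mb macrophages 1 UMI in Young A. The mean of Rgs2 was at least 15.6 CPM in each type. Lymphocytes led, with 549 ± 410.3 CPM in T and B cells (n = 7) and 403 ± 242 in NK cells (n = 5), ahead of dendritic cells with 314 ± 123 (n = 5), Mb macrophages with 251 ± 185 (n = 7) and Ma macrophages with 151 ± 38.6 (n = 3). T and B cells exceeded NK cells in only 3 of 5 mice, and NK cells exceeded dendritic cells in 2 of 5, so these neighbours could not be ordered. Among non-immune cells the level was 111 ± 28.9 CPM in myoepithelial cells, 97.2 ± 116 in pericytes, 89.3 ± 50.3 in fibroblasts, 53.5 ± 24.0 in HS cells, 24.4 ± 9.64 in vascular endothelial cells and 15.6 ± 6.55 in AV cells (all n = 7). The SD in pericytes was larger than their mean, and the mice separated there by age, as described below.

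Rgs5 and Rgs4 marked the pericytes. The study itself used Rgs5 to name this type, so its level there is not a finding. Rgs5 reached 939, 841 and 1339.9 CPM in pericytes of Young A, B and C and 345, 546, 633 and 875 CPM in Aged A to D, a mean of 788 ± 320.5 (SD, n = 7), and 63.6% of pericytes had an Rgs5 UMI. Rgs4 reached 229, 147 and 247 CPM in the young and 472, 265, 334 and 214 CPM in the aged mice, a mean of 273 ± 104, with a UMI in 48.7% of pericytes. Vascular endothelial cells had 90.9 ± 111 CPM of Rgs5 and 8.46 ± 5.22 CPM of Rgs4 (n = 7), below pericytes in 7 of 7 mice for both genes. All Rgs5 and Rgs4 UMIs of the T and B cells, 15 and 3, came from 1 cell of Young C and gave them means of 46.1 and 9.23 CPM. No Rgs5 UMI was found in NK cells or in dendritic cells (0 of 226, which by the same rule allows a share of cells with a UMI of up to 1.33%), and no Rgs4 UMI in Mb macrophages, NK cells or lymphatic endothelial cells.

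Rgs16 was spread over the vessel wall. Lymphatic endothelial cells had 2112 ± 1089 CPM (SD, n = 5), where Young B and Aged A, with 1 and 2 of these cells, were left out. Young A and Young C had 564 and 1531 CPM, and Aged B, C and D had 2335, 3333 and 2795 CPM. A UMI was present in 92.9% of the 28 lymphatic endothelial cells of all mice (95% exact binomial interval 76.5 to 99.1), against 1.51% of AV cells. Pericytes followed with 449.9 ± 189.8 CPM and vascular endothelial cells with 182 ± 106 CPM (both n = 7). Lymphatic cells exceeded pericytes in 5 of 5 mice, and pericytes exceeded vascular endothelial cells in 6 of 7. The remaining types stood lower, NK cells at 89.4 ± 78.2 CPM, T and B cells at 87.6 ± 83.1 and fibroblasts at 30.6 ± 25.3, and Mb macrophages had 0.275 CPM.

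Rgs3 was low everywhere and did not separate the vascular types. Pericytes had 59.4 ± 29.3 CPM and vascular endothelial cells 58.7 ± 14.2 CPM, with pericytes higher in 3 of 7 mice. Lymphatic endothelial cells had 44.6 ± 58.2 CPM (n = 5), HS cells 23.5 ± 3.36, fibroblasts 18.5 ± 12.9, AV cells 9.92 ± 4.56, myoepithelial cells 8.03 ± 6.65 and Mb macrophages 2.64 ± 4.60 CPM.

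**Figure D1:**
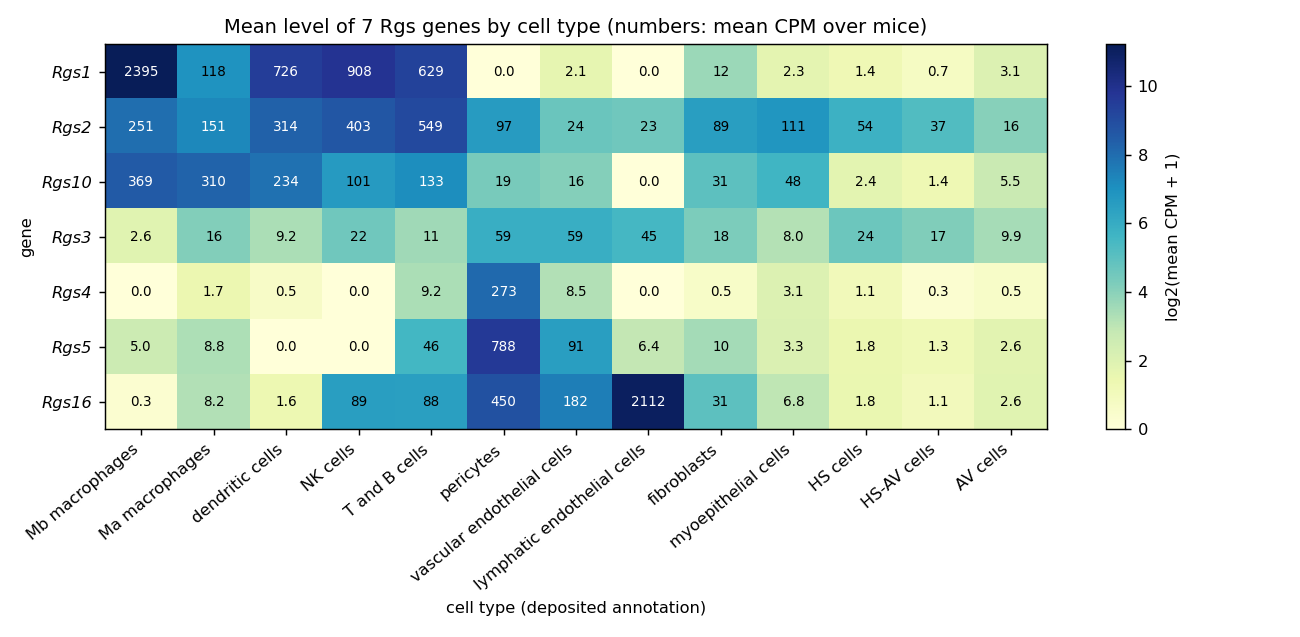
Mean CPM over mice of the 7 Rgs genes (rows) in the 13 annotated cell types (columns), printed in each square and coloured as log2 of the mean plus 1. Rgs1 and Rgs10 peak in Mb macrophages at 2395 and 369 CPM, Rgs2 in T and B cells at 549, Rgs4 and Rgs5 in pericytes at 273 and 788, and Rgs16 in lymphatic endothelial cells at 2112.

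These groupings recur in the genes whose profiles were most alike over 58 sums, each of 1 mouse and 1 type with at least 10 cells, among 7380 genes. The sums of a mouse share its library, so the correlations of log2(CPM + 1) are given as a description. Rgs1 ran with Lpxn (Pearson's r = 0.957), Ptprc (0.952), which encodes the pan-leukocyte antigen CD45, and Gpr65 (0.945). Rgs4 ran with Higd1b (0.945), H2-M9 (0.924) and Des (0.906), which encodes the muscle filament protein desmin, and Rgs5 with Higd1b (0.925), Rgs4 (0.893) and Ndufa4l2 (0.890). For Rgs16 the closest were Abcb1a (0.856), which encodes a drug efflux pump, Adamts4 (0.830) and Ctla2a (0.828). The profiles of Rgs2 (Sla, 0.708, Lpxn, 0.707, and Coro1a, 0.707), Rgs10 (Arhgdib, 0.779, Gng2, 0.778, and Fth1, 0.770) and Rgs3 (Bvht, 0.768, and Gpr146, 0.760) had less close neighbours. Among the 7 themselves r was 0.740 for Rgs5 with Rgs16, 0.701 for Rgs4 with Rgs16, 0.668 for Rgs1 with Rgs2, 0.649 for Rgs1 with Rgs10 and -0.511 for Rgs1 with Rgs3.

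Young and aged mice were then compared within cell types by edgeR's quasi-likelihood test on the UMIs summed per mouse. Lymphatic endothelial cells, Ma macrophages and the luminal cells annotated as both HS and AV (HS-AV) were not tested for age. Calls required an adjusted p (Benjamini-Hochberg) under 0.05 together with a fitted change of at least 1.5-fold. In vascular endothelial cells 3 of the 6 members tested were called, where 26.7% of all 7864 genes tested were. Rgs16 and Rgs10 rose with age and Rgs5 fell. The share of members called is to be read against the large share of all genes called in this type.

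Rgs16 in vascular endothelial cells stood at 100.1, 75.7 and 60.5 CPM in the young and at 290.3, 314, 176 and 256 CPM in the aged mice. Every aged mouse was above every young mouse. The fitted difference, aged minus young, was 2.05 ± 0.21 (log2, SE), a 4.14-fold rise (adjusted p = 1.68e-05, n = 3 and 4). The share of cells with an Rgs16 UMI was 27.4%, 19.0% and 17.9% in the young and 54.4%, 51.9%, 42.1% and 53.2% in the aged mice. When each cell was thinned to 2000 UMIs the shares were 10.3% to 12.7% in the young and 20.8% to 34.4% in the aged mice. The call held without any 1 mouse and under all 11 other settings.

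Rgs10 in the same cells was low, at 9.72, 7.08 and 9.62 CPM in the young and at 8.48, 23.0, 39.2 and 16.5 CPM in the aged mice. Aged A lay within the young range and the other 3 aged mice above it. The fitted rise was 1.68 ± 0.41 (log2, SE; adjusted p = 0.00764), and it was called without each mouse in turn and in all 10 other settings that tested it. Since Rgs10 is a leukocyte gene, leukocyte markers are given beside it. Ptprc in vascular endothelial cells was 0 to 2.91 CPM in the young and 0 to 2.10 CPM in the aged mice. The 4 dendritic markers summed to at most 33.0 CPM in the young and to 90.1 to 108 CPM in the aged mice, where nearly all of the sum was Traf1, a signaling adaptor, and Flt3 had no UMI.

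Rgs5 in vascular endothelial cells fell, from 84.5, 108 and 328 CPM in the young to 20.1, 2.79, 57.0 and 34.9 CPM in the aged mice. The groups did not overlap, and Young C stood apart from the other young mice. The fitted change was -2.20 ± 0.60 (log2, SE; adjusted p = 0.0137). It was no longer called without Young C, with -1.38 and adjusted p = 0.0722, nor by DESeq2, with adjusted p = 0.0960. An Rgs5 UMI was found in 10.6% of vascular endothelial cells (median 4907 UMIs), against 0.685% of AV cells (median 6632 UMIs).

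Pericyte markers moved with Rgs5 in these cells. The 6 pericyte markers summed to 36.4, 39.7 and 85.2 CPM in Young A, B and C and to 23.3, 4.89, 22.3 and 11.4 CPM in Aged A to D, so Young C had the highest and Aged B the lowest value of both Rgs5 and the markers. Of the young vascular endothelial cells with an Rgs5 UMI, 18.5% also had an Rgs4 UMI and 17.2% a Notch3 UMI, against 0.896% and 1.41% of those without. Pecam1 was present in 92.1% of the first and 90.1% of the second. In aged mice 22.0% of the cells with and 0.591% of the cells without an Rgs5 UMI had an Rgs4 UMI. Without the vascular endothelial cells that held any pericyte marker UMI, a choice made after seeing the data that left 829 of 932 young and 847 of 887 aged cells, Rgs5 was 23.4, 49.0 and 109 CPM in the young and 1.14, 2.86, 22.2 and 9.42 CPM in the aged mice. The level was then lower in every mouse but Aged B, the groups still did not overlap, and the fitted change was -2.26 ± 0.62 (adjusted p = 0.0145).

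**Figure D2:**
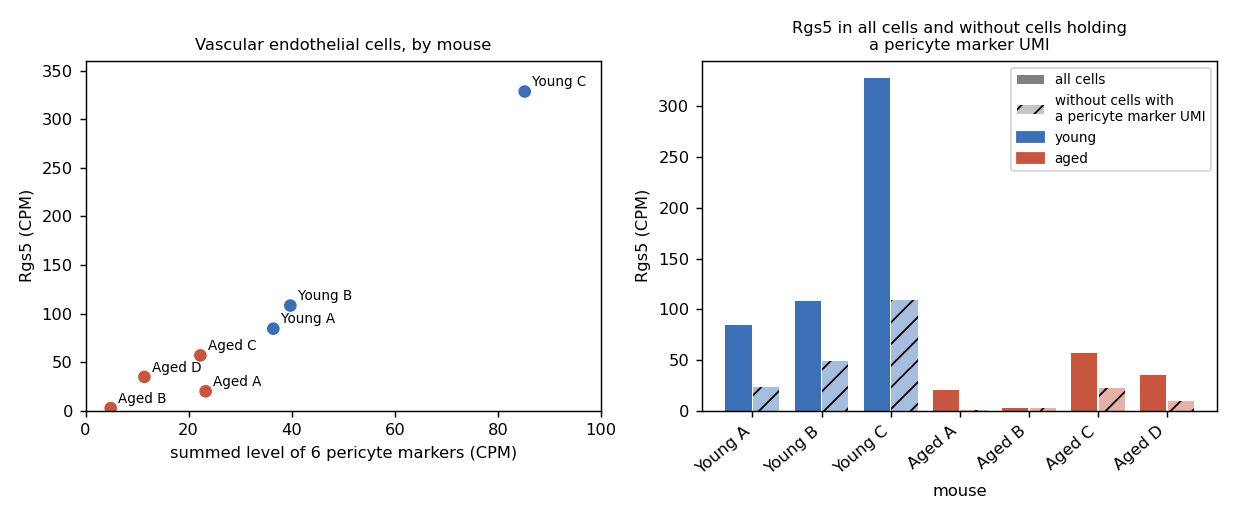
Left, Rgs5 (CPM) in vascular endothelial cells against the summed CPM of 6 pericyte markers in the same cells, 1 point per mouse. Right, Rgs5 (CPM) in each mouse over all vascular endothelial cells (solid bars) and without the cells that held a pericyte marker UMI (hatched bars); Young C falls from 328 to 109 CPM and Aged A from 20.1 to 1.14 CPM, and the young mice remain above the aged mice.

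The other members in vascular endothelial cells did not pass the test. Rgs4 was 15.5, 9.80 and 13.7 CPM in the young and 8.48, 0.698, 7.13 and 3.81 CPM in the aged mice, without overlap, and the fitted change was -1.11 ± 0.48 (log2, SE; adjusted p = 0.0981). It was called without Aged A (adjusted p = 0.0450). Without the cells that held a pericyte marker UMI, Rgs4 was 2.72, 3.02 and 0 CPM in the young and 0, 0, 0.967 and 0.673 CPM in the aged mice, so that the level was several times lower and the ages overlapped. Rgs2 was 26.1 to 41.3 CPM in the young and 11.7 to 24.8 CPM in the aged mice, again without overlap, with a fitted change of -0.41 ± 0.27 (adjusted p = 0.269). Rgs3 did not separate the ages, with 0.40 ± 0.21 (adjusted p = 0.180). The scaling mattered for these values. When libraries were scaled by their total counts in place of TMM, an alternative added after seeing the data, the median of all genes in vascular endothelial cells moved by -0.36 on the log2 scale, 22.4% instead of 55.0% of all calls were rises, and 5 members were called: Rgs16 with 1.68, Rgs10 with 1.32, Rgs5 with -2.56, Rgs4 with -1.48 (adjusted p = 0.0220) and Rgs2 with -0.78 (adjusted p = 0.0320). No member changed direction between the scalings in any cell type tested.

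In pericytes the member that changed was Rgs2, the only 1 of 5 tested to be called, where 11.8% of 2601 genes tested were. Rgs2 passed edgeR's filter on low counts only through the aged mice, where it was high, so its being tested already depended on that level. Its level was 18.1, 11.3 and 22.9 CPM in the young and 67.4, 339, 84.8 and 137 CPM in the aged mice, from 12, 4 and 5 and from 8, 64, 15 and 16 UMIs. All aged mice stood above all young mice, and Aged B was highest, its 64 UMIs coming from 12 cells. The fitted rise was 3.40 ± 0.54 (log2, SE; adjusted p = 0.00203), or 10.6-fold. Without Aged B it was 2.62 ± 0.43 (adjusted p = 0.00333). It was called without each mouse in turn and in all 10 other settings that tested it. Thinning to 2000 UMIs per cell left too few UMIs to test it. An Rgs2 UMI was found in 8.3%, 5.6% and 12.8% of the young and 20.8%, 26.1%, 25% and 25% of the aged pericytes.

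The cells summed as pericytes also differed in make-up between the ages. Pecam1 was 623 to 732 CPM in the young and 227 to 523 CPM in the aged sums, Acta2, which encodes smooth muscle actin, was 1050 to 1180 CPM against 2838 to 6806 CPM, and Myh11, which encodes smooth muscle myosin, was 119 to 192 CPM against 223 to 716 CPM. The 5 myoepithelial markers summed to 1241 to 1376 CPM against 3438 to 7572 CPM, most of it Acta2, whereas the keratin gene Krt14 was 0 to 39.2 CPM in the young and 25.3, 5.30, 413 and 103 CPM in Aged A to D. Pericyte markers did not move as 1 group: Des was 142 to 211 CPM in the young and 345 to 649 CPM in the aged sums, Pdgfrb was 82.3 to 149 CPM against 33.9 to 79.5 CPM, and Notch3 was 105 to 192 CPM against 85.8 to 143 CPM. The AV markers, all 6 of them detected, summed to 361 to 680 CPM against 577 to 2495 CPM. In aged mice 31.0% of the pericytes with an Rgs2 UMI and 52.8% of those without had a Pecam1 UMI, at median depths of 4123 and 4749 UMIs. Among the pericytes without a Pecam1 UMI, Rgs2 was 16.6, 19.6 and 0 CPM in the young and 82.3, 546, 246 and 314 CPM in the aged mice, with a fitted rise of 4.04 ± 0.91 (adjusted p = 0.0184) that rested on 12, 11 and 4 young cells with 1, 1 and 0 UMIs. The ages were apart in those cells too, which also were chosen after seeing the data.

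The other members tested did not pass the test in pericytes. Rgs5 lay below the young range in Aged A, B and C but not in Aged D, with a fitted change of -0.62 ± 0.27 (log2, SE; adjusted p = 0.146). Rgs4 had 0.79 ± 0.27 (adjusted p = 0.0684) and was called without Aged D (adjusted p = 0.0453) and with the mouse letters as a replicate block (adjusted p = 0.0419). Rgs16 had 0.67 ± 0.33 (adjusted p = 0.202) and was called without Aged A (adjusted p = 0.0418). Rgs3 had -0.62 ± 0.42 (adjusted p = 0.368). In young pericytes, Rgs4 was found in 54.1% of the cells with and 23.7% of the cells without an Rgs5 UMI, and in aged pericytes in 58.0% and 50.0%.

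Whether a member moved differently with age in vascular endothelial cells and in pericytes was tested directly, with each mouse as a block. Of 6 members tested 4 were called, where 9.60% of 7207 genes tested were. The age difference of Rgs2 was 3.83 ± 0.46 lower (log2, SE) in vascular endothelial cells than in pericytes (adjusted p = 2.03e-06). That of Rgs4 was 1.87 ± 0.42 lower in vascular endothelial cells (adjusted p = 0.00411). Both calls held without each mouse. When cells with UMIs of the other type's markers were left out, the Rgs4 difference was -3.21 ± 0.96 (adjusted p = 0.0282), with an endothelial side of 5, 5 and 0 young and 0, 0, 1 and 1 aged Rgs4 UMIs, and that of Rgs2 was -4.91 ± 0.84 (adjusted p = 9.24e-07). For Rgs16 the age difference was 1.40 ± 0.31 higher in vascular endothelial cells (adjusted p = 0.00397), but not called without Young A (adjusted p = 0.0933). For Rgs5 it was 1.53 ± 0.44 lower (adjusted p = 0.0250), and this call was lost without Young C (adjusted p = 0.147), Aged B (0.0577) or Aged D (0.0617), by DESeq2 (0.0986), and when cells with UMIs of the other type's markers were left out (-1.15, adjusted p = 0.159). Rgs10 and Rgs3 were not called, with differences of 1.44 ± 0.62 (adjusted p = 0.151) and 1.03 ± 0.43 (adjusted p = 0.146).

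**Figure D3:**
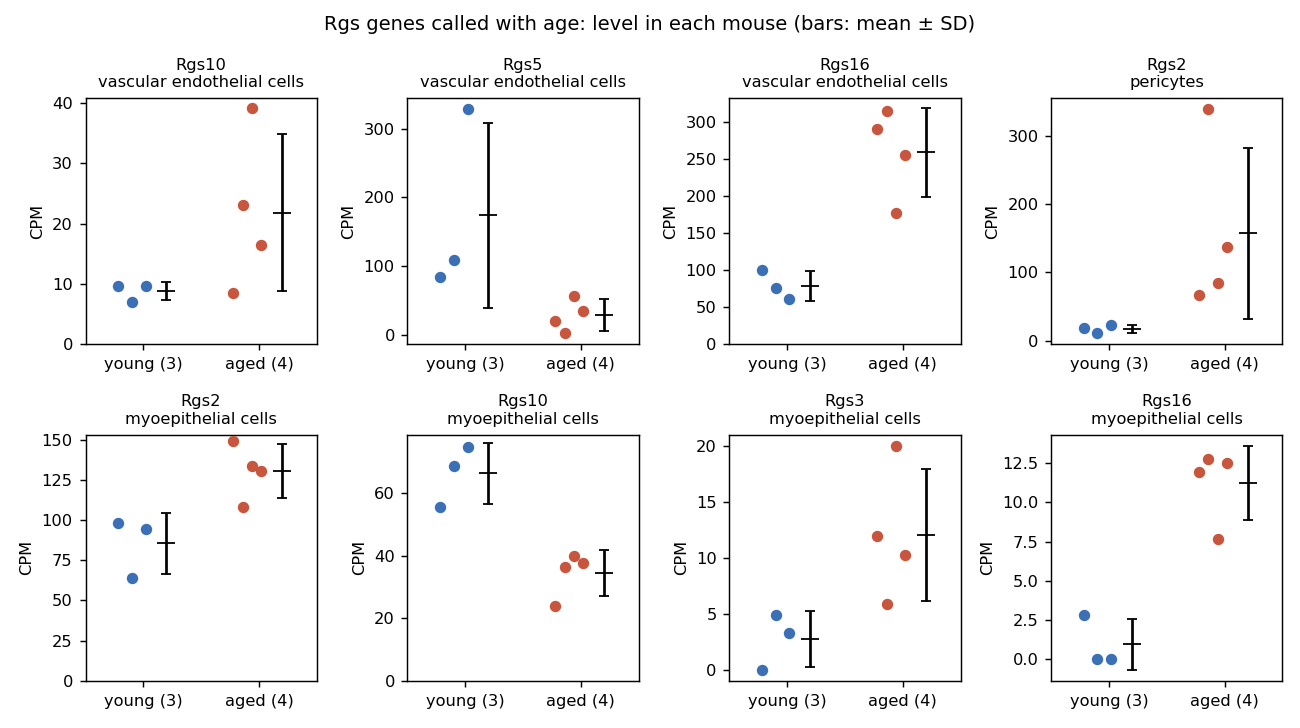
CPM in each mouse for the 8 pairs of member and cell type called with age; points are mice, bars are the mean ± SD of 3 young (blue) and 4 aged (red) mice, and each panel has its own linear axis. The ages overlap for Rgs10 in vascular endothelial cells and not in the other panels, a separation that choosing the called pairs largely builds in.

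In myoepithelial cells all 4 members tested were called, where 27.6% of 6740 genes tested were. Rgs2, Rgs3 and Rgs16 rose and Rgs10 fell. Rgs3 and Rgs16 passed edgeR's filter on low counts only through aged mice. Genes so low in the young could be tested only if they were higher in the aged mice, so the 4 calls are not read against that share. Rgs10 was 55.7, 68.8 and 74.7 CPM in the young and 23.9, 36.5, 40.0 and 37.7 CPM in the aged mice, a fitted change of -0.78 ± 0.26 (log2, SE; adjusted p = 0.0335). Rgs2 was 98.2, 63.9 and 94.1 CPM in the young and 149, 108, 134 and 131 CPM in the aged mice, a fitted change of 0.64 ± 0.22 (adjusted p = 0.0353). Neither gene's groups overlapped, yet both calls were fragile. The Rgs10 call was lost without Young A (adjusted p = 0.0598), Young B (0.0648), Young C (0.140) or Aged A (0.0682) and by DESeq2 (0.0689). That of Rgs2 was lost without Young A (0.0557), Young B (0.0933), Aged A (0.0573), Aged C (0.0535) or Aged D (0.0762), by DESeq2 (0.0684) and with total-count scaling (0.0784).

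Rgs16 and Rgs3 were close to the detection limit in young myoepithelial cells. Rgs16 gave 3, 0 and 0 UMIs in the young and 13, 37, 5 and 22 UMIs in the aged mice, that is, 2.83, 0 and 0 CPM against 11.9, 12.7, 7.69 and 12.6 CPM. Pooled over mice the aged level was 6.30 times the young one (95% interval from the counts 2.08 to 31.2), and the fitted change was 2.68 ± 0.65 (adjusted p = 0.00578), called in all 4 fits without 1 mouse that retained the gene. Without Young A, whose 3 UMIs were the only young ones, the fitted value has no young UMI to rest on. The summed lymphatic endothelial markers, which belong to the type with the highest Rgs16, reached 452 CPM in Aged C, and 286 Ccl21a UMIs of that sum came from 1 cell that had no Rgs16 UMI. Rgs3 gave 0, 1 and 1 UMIs in the young and 13, 17, 13 and 18 UMIs in the aged mice, a pooled ratio of 7.49 (1.99 to 63.3), with a fitted change of 2.98 ± 0.89 (adjusted p = 0.0196) that was lost without Young A (1.52, adjusted p = 0.300). Other markers moved in these cells as well. Epcam was 371 to 484 CPM in the young and 1459 to 2089 CPM in the aged sums, and Acta2 4345 to 9245 CPM against 754 to 1816 CPM, and their part in the results for the members was not tested.

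In the other types tested no member was called by edgeR. In HS cells, where 6.26% of 8457 genes were called, 0 of 2 members were, 1 had an unadjusted p below 0.05 and DESeq2 called 0. That member was Rgs2, at 80.5, 77.5 and 67.8 CPM in the young and 20.3, 28.7, 39.4 and 60.3 CPM in the aged mice, without overlap, with a fitted change of -0.93 ± 0.30 (adjusted p = 0.0889), and it was called without Aged D (adjusted p = 0.0273). In AV cells, where 6.16% of 11012 genes were called, 0 of 6 members were, 2 had an unadjusted p below 0.05 and DESeq2 called 1. Rgs3 was 9.23, 5.40 and 3.31 CPM in young and 11.8, 14.2, 9.41 and 16.1 CPM in aged AV cells, without overlap but with Young A close to Aged C, and the fitted change was 1.40 ± 0.37 (adjusted p = 0.0517, 0.0440 without Young A). Rgs16 in AV cells had 1.95 ± 0.81 (adjusted p = 0.180) at levels of 0.413 to 5.92 CPM.

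Fibroblasts and the leukocyte types tested gave no call either. In fibroblasts 3.17% of 5513 genes and 0 of 4 members were called, 1 member had an unadjusted p below 0.05, and DESeq2 called 0. That member was Rgs16, with 1.48 ± 0.57 (log2, SE; adjusted p = 0.174). In Mb macrophages 1.16% of 859 genes and 0 of 3 members were called, with 1 unadjusted p below 0.05 and 0 calls by DESeq2. Rgs1 there was 870.3, 2098 and 1403 CPM in the young and 1572, 2872, 2091 and 5862 CPM in the aged mice, overlapping, with 1.42 ± 0.53 (adjusted p = 0.187). Rgs10 was 391 to 610.3 CPM in young and 246 to 341 CPM in aged Mb macrophages, without overlap, with -0.42 ± 0.30 (adjusted p = 0.457). The values of Aged A to D came from only 26, 8, 8 and 6 Rgs10 UMIs in sums of 9, 6, 4 and 3 cells. In dendritic cells, where 3.75% of 1360 genes and 0 of 3 members were called, 1 unadjusted p was below 0.05 and DESeq2 called 0. Rgs1 was 389.5, 607 and 654 CPM in 3 young mice and 1106 and 876 CPM in the 2 aged mice with enough dendritic cells, with 0.91 ± 0.30 (adjusted p = 0.124). NK cells (0.82% of 366 genes, 0 of 2 members) and T and B cells (0.656% of 457 genes, 0 of 2 members) had no member at an unadjusted p below 0.05 and 0 calls by DESeq2. Rgs1 had positive fitted differences there as well, 1.08 ± 0.48 (adjusted p = 0.467) and 1.11 ± 0.70 (adjusted p = 0.506). The aged NK cells were those of Aged A and B, with 5 cells each. In T and B cells the ages overlapped, and Aged D with 169 CPM lay below Young B with 316 and Young C with 646 CPM.

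**Figure D4:**
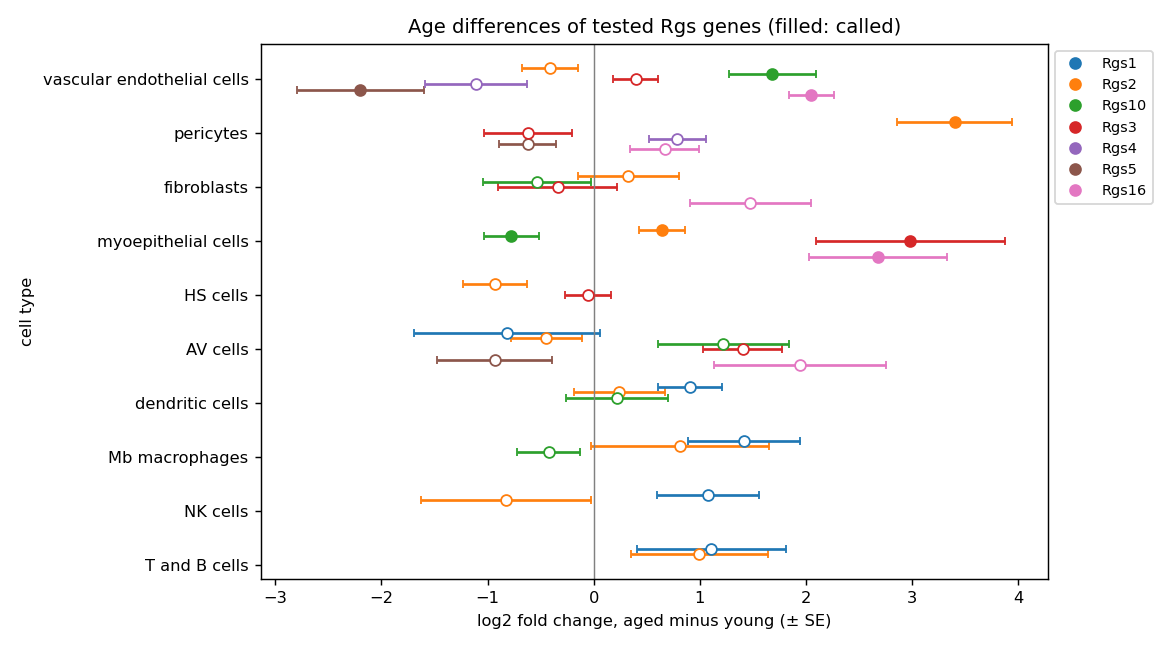
Fitted log2 fold change, aged minus young, with its SE for each member tested in each cell type; filled points were called and open points were not. The called values run from -2.20 (Rgs5, vascular endothelial cells) to 3.40 (Rgs2, pericytes), and Rgs2 lies on both sides of 0 in different types.

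The age differences were compared for 3 further pairs of types. Between vascular endothelial cells and fibroblasts, where 5.62% of 8599 genes were called, 0 of 6 members were, 3 had an unadjusted p below 0.05 and DESeq2 called 0. Rgs10 had 1.74 ± 0.55 more in vascular endothelial cells (adjusted p = 0.0690) and was called without Young B (adjusted p = 0.0194) or Young C (0.0379). Rgs2 and Rgs5 were called without Young A (adjusted p = 0.0320 and 0.00183). Between AV and HS cells, where 2.41% of 9838 genes were called, 0 of 3 members were, 1 had an unadjusted p below 0.05 and DESeq2 called 0. That was Rgs3, with 1.47 ± 0.39 more in AV cells (adjusted p = 0.0524), and it was called without Young A (0.0263) or Aged B (0.0494). Between AV and myoepithelial cells, where 9.25% of 9434 genes were called, 1 of 5 members was. The age difference of Rgs2 was 1.28 ± 0.36 lower in AV cells (adjusted p = 0.0336), a call that held without Aged C but was lost without each of the other 6, the adjusted p running from 0.0172 to 0.136, and that DESeq2 did not make (0.0540). Rgs10 had 1.71 ± 0.56 (adjusted p = 0.0607) and was called without Young A (0.0278), Aged B (0.0491) or Aged D (0.0411).

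The rest of the G-protein pathway is given for the types in which a member was called. Of all genes tested, 26.7% were called in vascular endothelial cells, 11.8% in pericytes and 27.6% in myoepithelial cells. In vascular endothelial cells 7 of 15 G alpha genes could be tested. Gna11 (-0.94 ± 0.20, adjusted p = 0.00380), of the Gq class, and Gna12 (-0.88 ± 0.28, adjusted p = 0.0285) fell, and Gna13 rose (0.60 ± 0.17, adjusted p = 0.0161) but was not called with total-count scaling. The median over the 7 was 0.02 against -0.05 over all genes tested. Of 11 receptor genes tested from 32, 2 rose and 4 fell, with a median of -0.68. The largest were the adenosine receptor Adora2a (-3.54 ± 0.34, adjusted p = 1.04e-05), which went from 46.3 ± 17.3 CPM to 3.30 ± 0.989 CPM, the endothelin receptor Ednrb (-2.61 ± 0.26, adjusted p = 1.16e-05) and the nucleotide receptor P2ry2 (2.41 ± 0.32, adjusted p = 9.38e-05). Of 6 effector genes tested from 17, Pik3r5, a subunit of the G beta gamma-driven PI3 kinase, rose (2.99 ± 0.28, adjusted p = 7.99e-06) and the adenylyl cyclase Adcy6 fell (-1.80 ± 0.38, adjusted p = 0.00328), with a list median of 0.13. Gnb4 fell (-0.78 ± 0.24, adjusted p = 0.0269) as 1 of 8 G beta and gamma genes tested (median -0.08), the receptor kinase Grk5 fell (-1.28 ± 0.30, adjusted p = 0.00615) as 1 of 4 kinases and arrestins (median -0.38), and 0 of 2 other RGS genes tested were called by edgeR or DESeq2 (1 at an unadjusted p below 0.05, median -0.57).

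In pericytes 1 of 6 G alpha genes tested was called, Gnaq, the main Gq subunit, which fell (-1.93 ± 0.38, adjusted p = 0.00708) from 78.1 ± 7.54 to 17.2 ± 7.32 CPM. The list's median was -0.02 against 0.01 over all genes tested. Of 5 receptor genes the sphingosine-1-phosphate receptor S1pr1, well known from endothelium, fell (-1.19 ± 0.24, adjusted p = 0.00708), and the list's median was -0.16. Of 7 G beta and gamma genes (median -0.07) and the 1 effector tested (-1.05), 0 were called by edgeR or DESeq2, with 1 unadjusted p below 0.05 in each list. In myoepithelial cells Gnai3 rose (0.85 ± 0.22, adjusted p = 0.00898) as 1 of 7 G alpha genes (median -0.03 against 0.01 over all genes tested) and Gng11 fell (-2.35 ± 0.41, adjusted p = 0.000614) as 1 of 5 G beta and gamma genes (median 0.30). Of 4 receptor genes tested (median 0.60), the oxytocin receptor Oxtr, through which myoepithelial cells contract, fell (-3.16 ± 0.45, adjusted p = 0.00012) from 59.4 ± 28.7 to 4.41 ± 3.03 CPM. Rgs12, the only other RGS gene tested there, rose (1.26 ± 0.35, adjusted p = 0.0133).

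Rgs2 and Rgs16 are known as readily induced genes, and 19 immediate early and dissociation genes were followed beside them. Their summed level was 26756 to 34643 CPM in young and 25913 to 31175 CPM in aged vascular endothelial cells, 26248 to 30882 against 27801 to 35876 CPM in pericytes and 11207 to 15281 against 12317 to 16856 CPM in myoepithelial cells, with overlapping ranges in each type. Of the 19 genes 5 rose and 3 fell in vascular endothelial cells (3 and 6 with total-count scaling), where Ier3 rose by 2.00 ± 0.14 (adjusted p = 1.18e-06) and Fosb fell (-1.53 ± 0.19, adjusted p = 6.08e-05). In pericytes 6 rose and 1 fell (3 and 1 with total-count scaling), the heat shock gene Hspa1a with 1.65 ± 0.35 (adjusted p = 0.00848) and Fosb with -1.32 ± 0.24 (adjusted p = 0.00434). In myoepithelial cells 5 rose and 3 fell, and Nfkbia rose by 1.84 ± 0.21 (adjusted p = 1.56e-05). These counts stand beside 26.7%, 11.8% and 27.6% of all genes tested that were called in vascular endothelial cells, pericytes and myoepithelial cells. The part of such genes' induction in the members' differences was not tested.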

How the data were processed

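Mammary gland cells of 3 young and 4 aged mice were measured by single-cell RNA-seq of 3′ ends. The authors counted UMIs per gene and cell with Cell Ranger 2.0 against mm10, according to the submitters' processing notes, and deposited 1 matrix of unnormalised counts for the cells that passed their filters, with each cell's mouse and cell type. The deposited metadata also gave the mitochondrial fraction of each cell as computed by the authors, which was not used as a readout. No column of samples was left unused (0). Cell types were the authors' clusters of these cells, so levels between types carry no test. The 7 genes, the gene lists and the comparisons were chosen with earlier results of these data known.

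The UMI counts of each type were added up within a mouse, for mice with at least 3 cells of the type. For the types compared by age they were tested by edgeR's quasi-likelihood test (edgeR 4.0.16, R 4.3.3) with TMM scaling and edgeR's filter on low counts, adjusted over all genes tested. The SE of a log2 fold change was derived from the F statistic. Age differences were compared between types in 1 model with the mouse as a block. DESeq2 1.42.0, other scalings and filters, thinning to 2000 UMIs, a replicate block and leaving out each mouse were alternatives. Scripts (Python 3.11.15, scanpy 1.11.5) were tested on simulated data. Scrublet marked 73 of 13684 cells as doublets, few for this method, and these were removed only in an alternative. Depth per mouse was 6652599 to 16999625 UMIs.

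All 7 genes were described in every type. From each gene list at most 3 called genes with the largest change were named. The 3 most similar genes of a member were those with the highest Pearson correlation of log2(CPM + 1) over sums of at least 10 cells, among genes with a mean of at least 10 CPM. Some genes that these rules select are not reported here. The 2 ages differ in the format of the cell barcodes in the files. The labels do not say whether libraries of the 2 ages were handled apart, and an effect of such handling could not be told apart from age. Mice of both ages that share a letter are different animals.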

Additional observations from a re-analysis of the deposited data

Results flagged for a closer look

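The age differences of several members differed between cell types by a test of the difference itself. In vascular endothelial cells relative to pericytes the fitted difference was -3.83 for Rgs2, 1.40 for Rgs16, -1.53 for Rgs5 and -1.87 for Rgs4 on the log2 scale. The Rgs16 call was lost without Young A. That of Rgs5 was lost without Young C, Aged B or Aged D, by DESeq2 and without cells with UMIs of the other type's markers. In AV relative to myoepithelial cells the fitted difference was -1.28 for Rgs2, which DESeq2 did not call and which was lost without any 1 of 6 mice.

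A further 5 values stood apart from the other 3 aged mice by Dixon's test, among 33 groups of 4 aged mice examined, and chance alone flags about 1 in 20 groups. Rgs2 in AV cells was 18.5 CPM in Aged C, against 9.21 to 9.99 CPM in the others. Rgs10 in AV cells was 13.1 CPM in the same mouse, against 4.94 to 5.68 CPM. Rgs16 in myoepithelial cells was 7.69 CPM in Aged C, from 5 UMIs, and 11.9 to 12.7 CPM in the others. Dixon's test on CPM does not weigh the number of UMIs behind a value. Rgs2 in fibroblasts was 161.0 CPM in Aged B, against 70.7 to 76.0 CPM, and Rgs3 in vascular endothelial cells was 87.3 CPM in Aged B, against 47.7 to 52.7 CPM.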

How the results depend on the processing

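The number of members called moved as follows. By DESeq2 it was 2 instead of 4 in myoepithelial cells, 2 instead of 3 in vascular endothelial cells, 3 instead of 4 for vascular endothelial cells against pericytes, 1 instead of 0 in AV cells and 0 instead of 1 for the difference between AV and myoepithelial cells. Without a filter on low counts it was 1 instead of 0 in HS cells, AV cells, fibroblasts, T and B cells and for AV against HS cells, 2 instead of 1 in pericytes and for AV against myoepithelial cells, 2 instead of 0 for vascular endothelial cells against fibroblasts, 4 instead of 3 in vascular endothelial cells and 3 instead of 4 in myoepithelial cells. With cells thinned to 2000 UMIs it was 1 in myoepithelial cells, 2 in vascular endothelial cells, 0 in pericytes, 1 for vascular endothelial cells against fibroblasts and 0 for AV against myoepithelial cells. Without ribosomal protein and mitochondrial genes it was 1 for vascular endothelial cells against fibroblasts. Scaling by total counts, added after seeing the data, gave 5 instead of 3 in vascular endothelial cells and 3 instead of 4 in myoepithelial cells. Without cells with UMIs of the other vascular type's markers, added likewise, it was 3 instead of 4 for vascular endothelial cells against pericytes. The mouse letters did not pair the samples (28 correlations of -0.175 to 0.375, median -0.007, 5 of them over 0.1). With the letter as a replicate block the number was 1 in HS cells, 2 in pericytes, 3 in vascular endothelial cells and 3 in myoepithelial cells.

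Leaving out 1 mouse gave 0 to 3 calls in myoepithelial cells, 0 to 1 in HS cells, 0 to 1 in AV cells, 1 to 2 in pericytes, 2 to 4 in vascular endothelial cells, 3 to 4 for vascular endothelial cells against pericytes, 0 to 2 against fibroblasts, and 0 to 1 for AV against HS and against myoepithelial cells. Rgs10 in Mb macrophages was 513.4 CPM when all mice were summed before scaling, instead of 369.4 CPM. Rgs1 in the same cells was then 1355.7 CPM instead of 2395.4 CPM.

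Some differences that were not called changed sign. Without 1 mouse, Rgs3 in HS cells ran from -0.19 to 0.07, Rgs2 in fibroblasts from -0.04 to 1.22, Rgs3 in fibroblasts from -1.08 to 0.29, Rgs2 in dendritic cells from -1.23 to 0.75, Rgs10 there from -0.83 to 0.61, and Rgs3 between AV and myoepithelial cells from -2.84 to 0.19. In dendritic cells Rgs2 was -0.07 without the filter and -0.03 when thinned, and Rgs10 was -0.11 and -0.19. Rgs4 between vascular endothelial cells and fibroblasts was -1.15 by DESeq2. The cause of these changes was not tested. A minimum of 10 cells per mouse could not be fitted for dendritic cells, Mb macrophages, NK cells and T and B cells.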

Other observations

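The other 15 genes of the family in the matrix, Rgsl1 included, gave 2438 UMIs together. Rgs19 had 984 UMIs and was highest in dendritic cells, at 42.0 ± 17.6 CPM (SD, n = 5). Rgs12 had 711 UMIs and was highest in myoepithelial cells, at 36.8 ± 20.6 CPM (SD, n = 7). Rgs18, a gene known from platelets and myeloid cells, was highest in Ma macrophages, at 51.2 ± 15.8 CPM (SD, n = 3). Rgs13, Rgs21 and Rgs22 had 0 UMIs in all cells.

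In aged pericytes the cells with an Rgs16 UMI and those without differed in other transcripts, which is given as a description. Of 55 cells with an Rgs16 UMI 63.6% had a Pecam1 UMI and 38.2% a Des UMI, against 33.3% and 79.4% of the 63 cells without one. In young pericytes 68.6% of the cells with and 37.3% of the cells without an Rgs5 UMI had an Rgs16 UMI.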
